A study of Arabidopsis thaliana with 3 samples.

Results

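The chloroplast genome loci of Arabidopsis thaliana were followed across the groups of an RNA-sequencing study of salt stress. They were taken as all gene identifiers that start with ATCG, which gave 133 of the 33557 loci of each table. The groups used were skip-S, the skip mutant in MS medium with 200 mM NaCl, WT-S, wild type in the same salt medium, and WT-0, wild type in MS liquid medium without added salt. Total RNA came from seedlings 11 days old, labelled as plant with no organ given, and the salt treatment lasted 4 h. All groups shared the age and the basal medium. The labels name neither the allele nor the background of skip, and the untreated mutant is not analysed here, so a difference between skip-S and WT-S cannot be told apart from one that is present without salt. The deposited value of a locus merges 2 replicates of a group, so differences could not be set against the spread between replicates, and they carry no p-value.

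The chloroplast keeps a small circular genome of bacterial descent. Its genes encode core subunits of the photosystems, the cytochrome b6f complex, the ATP synthase and the NDH complex, part of the plastid ribosome, the core of a bacterial-type RNA polymerase, and the rRNAs and tRNAs of the organelle. Most of them are transcribed in long clusters by that polymerase, guided by sigma factors from the nucleus, or by phage-type polymerases that the nucleus also encodes. Chloroplast transcripts lack the stable poly(A) tails of nuclear mRNA, and a tail added in the plastid marks an RNA for decay. The remaining subunits of the same complexes are nuclear genes, and the organs of a plant differ in how many chloroplasts they hold.

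The RefSeq record of the chloroplast genome in assembly TAIR10.1 lists 129 genes, of which 85 are protein-coding, 37 are tRNA and 7 are rRNA genes. By symbol its protein-coding genes include 5 of photosystem I, 15 of photosystem II, 6 of the ATP synthase, 6 of cytochrome b6f, 11 of NDH, 21 of ribosomal proteins and 4 of the RNA polymerase. That record uses other locus tags, and 6 of the 133 loci are called here by a gene name, which rests on notes on related nuclear loci. In each of the 6 cases the noted nuclear locus was matched by translated sequence to a gene of the record. ATCG00420 was tied in this way to ndhJ and ATCG00430 to ndhK, subunits of the NDH complex, which returns electrons to the photosynthetic chain. The note on ATCG00430 calls it photosystem II reaction center protein G, an older name, while the sequence of its nuclear relative AT5G11770 matched ndhK best. ATCG00660 and ATCG01310 were tied to rpl20 and rpl2, proteins of the plastid ribosome, ATCG00670 to clpP, a subunit of the Clp protease, and ATCG00530 to cemA, a protein of the chloroplast envelope. Other loci are given by identifier alone, and the set was not grouped by function.

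The values are FPKM, in which the fragments of a locus are divided by its length and by the size of the library. WT-S stands in both tables with values that differed by a constant factor, with a median of 1.1049 and a range of 1.1046 to 1.1053 over 86 chloroplast loci, so each ratio was formed within a table. FPKM of WT-S is quoted from the first table beside WT-0 and from the second beside skip-S. Depth was estimated from the steps of low values of nuclear genes: 1 FPKM on a transcript of 1 kb rested on about 36.2 fragments in skip-S, 49.5 and 44.3 in WT-S (second and first table) and 41.2 in WT-0, which covers counting error only. The lengths of the chloroplast loci are not tied to their identifiers, so this does not give a depth per locus. The targeted gene SKIP (AT1G77180), which encodes a protein of the spliceosome, was at 41.6 FPKM in skip-S and 49.0 FPKM in WT-S, and at 54.2 FPKM in WT-S and 39.2 FPKM in WT-0, so this level does not check the genotype.

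Of the 133 chloroplast loci, 81 were above 0 in every group, 42 were listed at 0 in every group and 10 were above 0 in some groups. By group, 88 were above 0 in skip-S, 86 in WT-S and 85 in WT-0. The loci listed at 0 in every group were 31.6% of the chloroplast loci, 31.5% of the mitochondrial loci and 22.3% of the nuclear loci. All 623 nuclear loci that RefSeq gives as tRNA were also at 0 in every column, so a 0 is described as listed at 0 and not as absence of the transcript.

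With salt, most chloroplast loci were lower in wild type. Of the 83 loci above 0 in both columns, 48 were at least 2-fold lower in WT-S than in WT-0, 0 were at least 2-fold higher and 35 were within that rule of size. The shares among all genes above 0 in both columns were 11.5% for lower and 13.4% for higher. The median log2 ratio of FPKM was -1.25 over the chloroplast loci, with quartiles of -1.58 and -0.85, against -0.02 over all genes. The ratio was below 0 for 80 of the 83 loci, and for 51.4% of all genes. The median level of the 83 loci was 4.30 FPKM in WT-S and 8.61 FPKM in WT-0. In RNA of seedlings with no organ given, fewer chloroplasts, a smaller share of green cells and less RNA per chloroplast cannot be told apart. The part of RNA selection for the libraries, which the labels do not state, was not tested.

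Under salt, nearly all chloroplast loci with a ratio were higher in the mutant. The loci above 0 in both columns were again 83, but not the same 83, and 81 were in both sets. ATCG00950 and ATCG01180 had a ratio only in the salt comparison, and ATCG00970 and ATCG01160 only in this one. Of the 83 loci above 0 in both columns, 79 were at least 2-fold higher in skip-S than in WT-S, 0 were at least 2-fold lower and 4 were within the rule, and 64 were at least 4-fold higher. The shares among all genes were 6.66% for higher and 9.77% for lower, and 2.32% for 4-fold higher. None of these 83 loci was at least 4-fold lower in skip-S, against 1.83% of all genes above 0 in both columns. Loci listed at 0 in skip-S but not in WT-S have no ratio and are given further on. The median log2 ratio was 2.60 over the chloroplast loci, a 6.06-fold difference, with quartiles of 2.20 and 2.89, against -0.09 over all genes. The median level of the 83 loci was 21.3 FPKM in skip-S and 3.89 FPKM in WT-S. Both comparisons share the WT-S values, so they are not independent of each other.

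**Figure D1:**
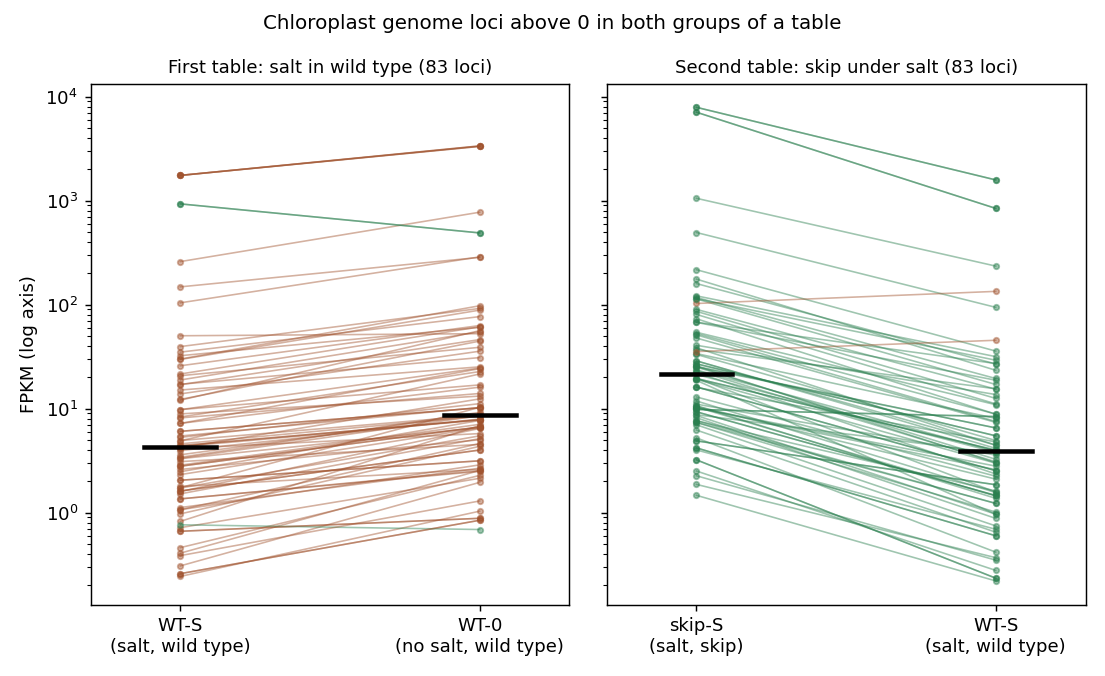
FPKM of the chloroplast loci on a log axis, with a point per locus and group, a line per locus and a thick bar at the median of the 83 loci in each column. The sets of 83 differ between the panels and share 81 loci. Lines are green where the left-hand group is higher and brown where it is lower. With salt in wild type, 80 of 83 loci are lower in WT-S than in WT-0, and under salt 81 of 83 are higher in skip-S than in WT-S.

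Several loci of high level had ratios on these sides, while ATCG00960, ATCG00950 and ATCG00630, which are described further on, did not in at least 1 comparison. ATCG00020 was at 1052 FPKM in skip-S and 235 FPKM in WT-S, a 4.49-fold difference, and at 259 FPKM in WT-S and 773 FPKM in WT-0, a log2 ratio of -1.58. ATCG00490 was at 493 FPKM in skip-S and 94.1 FPKM in WT-S, and at 104 FPKM in WT-S and 287 FPKM in WT-0. Both loci thus lay above WT-0 in the mutant with salt and below it in wild type with salt. ATCG00280 was at 216 FPKM in skip-S and 35.7 FPKM in WT-S, and at 39.5 FPKM in WT-S and 91.8 FPKM in WT-0. ATCG00270 was at 176 FPKM in skip-S and 23.4 FPKM in WT-S, and at 25.8 FPKM in WT-S and 62.9 FPKM in WT-0. The identifiers of these 2 loci follow each other, and their log2 ratios were 2.60 and 2.91 for skip-S over WT-S and -1.22 and -1.28 for WT-S over WT-0. ATCG00340 and ATCG00350, another neighbouring pair, were at 117 and 113 FPKM in skip-S, against 19.5 and 17.1 FPKM in WT-S. In the first table ATCG00340 and ATCG00350 were at 21.5 and 18.8 FPKM in WT-S, against 61.0 and 54.7 FPKM in WT-0.

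The 6 loci called by a gene name lay on the same sides as most of the set. Among the ribosomal proteins, rpl20 (ATCG00660) was at 8.17 FPKM in skip-S and 0.880 FPKM in WT-S, a 9.29-fold difference, and at 0.972 FPKM in WT-S and 4.34 FPKM in WT-0, a log2 ratio of -2.16. The gene rpl2 (ATCG01310) was at 27.0 FPKM in skip-S and 5.47 FPKM in WT-S, and at 6.04 FPKM in WT-S and 10.2 FPKM in WT-0, a log2 ratio of -0.75. With salt rpl20 was thus more than 4-fold lower and rpl2 less than 2-fold lower, while both genes were more than 4-fold higher in skip-S.

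For the NDH complex, ndhJ (ATCG00420) was at 10.2 FPKM in skip-S and 2.59 FPKM in WT-S, and at 2.86 FPKM in WT-S and 7.05 FPKM in WT-0. Its neighbour ndhK (ATCG00430) was at 12.9 FPKM in skip-S and 2.24 FPKM in WT-S, and at 2.47 FPKM in WT-S and 7.68 FPKM in WT-0. Their log2 ratios were 1.97 and 2.53 for skip-S over WT-S and -1.30 and -1.64 for WT-S over WT-0. The protease gene clpP (ATCG00670) had the smallest difference among the 6 in the mutant, with 16.0 FPKM in skip-S and 4.79 FPKM in WT-S, a 3.34-fold difference. In the first table clpP was at 5.29 FPKM in WT-S and 11.2 FPKM in WT-0. The envelope protein gene cemA (ATCG00530) was at 23.2 FPKM in skip-S and 3.08 FPKM in WT-S, and at 3.40 FPKM in WT-S and 9.21 FPKM in WT-0. Over the 6 named loci, log2 ratios ran from 1.74 to 3.22 for skip-S over WT-S, and from -2.16 to -0.75 for WT-S over WT-0.

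At the far end of the salt comparison, 11 of the 83 loci with a ratio were at least 4-fold lower and 0 at least 4-fold higher. The shares of all genes were 3.66% and 5.71%. ATCG00650 was at 0.823 FPKM in WT-S and 6.87 FPKM in WT-0, a log2 ratio of -3.06. ATCG00040 was at 1.74 FPKM in WT-S and 10.3 FPKM in WT-0, a log2 ratio of -2.56. ATCG00580, a more abundant locus, was at 12.04 FPKM in WT-S and 56.1 FPKM in WT-0, a log2 ratio of -2.22. The other 8, which include rpl20, had log2 ratios from -2.67 (ATCG01010) to -2.01 (ATCG01050). At the other end, 3 loci had ratios above 0. ATCG00960 and ATCG01170 shared their values, with 929.9 FPKM in WT-S and 489 FPKM in WT-0, and ATCG01120 was at 0.763 FPKM in WT-S and 0.687 FPKM in WT-0. ATCG01020 was nearly level, with 50.2 FPKM in WT-S and 52.5 FPKM in WT-0.

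In the mutant comparison the widest difference was that of ATCG00820, at 18.7 FPKM in skip-S and 0.965 FPKM in WT-S, a log2 ratio of 4.27. ATCG00860 and ATCG01280, which shared their values, were at 3.21 FPKM in skip-S and 0.234 FPKM in WT-S, a log2 ratio of 3.78. ATCG01110 was at 5.23 FPKM in skip-S and 0.417 FPKM in WT-S, and ATCG00040 was at 19.6 FPKM in skip-S and 1.57 FPKM in WT-S. These 5 loci were all under 2 FPKM in WT-S, and the number of fragments behind each value is not known. Loci of higher level showed large differences as well: ATCG00120 was at 73.1 FPKM in skip-S and 8.84 FPKM in WT-S, an 8.27-fold difference. The 4 loci within the rule were ATCG00630, ATCG01020 and the pair ATCG00970 and ATCG01160. ATCG00630 was at 102 FPKM in skip-S and 134 FPKM in WT-S, and at 148 FPKM in WT-S and 284 FPKM in WT-0, so it did not lie above WT-S in the mutant. ATCG01020 was at 35.3 FPKM in skip-S and 45.4 FPKM in WT-S. ATCG00970 and ATCG01160 were at 9.80 FPKM in skip-S and 8.38 FPKM in WT-S.

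The medians lay on the same sides in each range of level. For the 24 loci with a mean under 5 FPKM over the 4 columns, the median log2 ratio was 2.81 for skip-S over WT-S and -1.503 for WT-S over WT-0. For the 31 loci with a mean from 5 to 20 FPKM it was 2.60 and -1.08 in the same comparisons. For the 26 loci with a mean of 20 FPKM or more it was 2.47 and -1.25. The loci of higher level also held the lowest ratio in the mutant, -0.39 for ATCG00630, while among loci with a mean under 5 FPKM the lowest was 1.40.

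The salt-treated mutant was also compared with untreated wild type, by multiplying the ratios of the 2 tables, in which WT-S cancels. This comparison changes genotype and medium together. Of 81 loci with both ratios, 51 were at least 2-fold higher in skip-S than in WT-0, 1 was at least 2-fold lower and 29 were within the rule. The shares among all genes on the same path were 14.1% for higher and 16.0% for lower. By the 4-fold rule 9 chloroplast loci were higher and 0 lower, against 6.44% and 5.74% of all genes. The median log2 ratio was 1.34 over the chloroplast loci and -0.07 over all genes. Most loci were thus higher in skip-S than in untreated wild type too, with 77 of the 81 ratios above 0. The 4 below 0 were ATCG00630 with -1.33, ATCG01020 with -0.43, ATCG00550 with -0.38 and ATCG01000 with -0.30. ATCG00580 with 0.09, ATCG00650 with 0.17 and ATCG01060 with 0.22 were close to the untreated level. The largest ratio was that of ATCG00960 and ATCG01170, with 4.00, followed by ATCG01120 with 2.69.

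**Figure D2:**
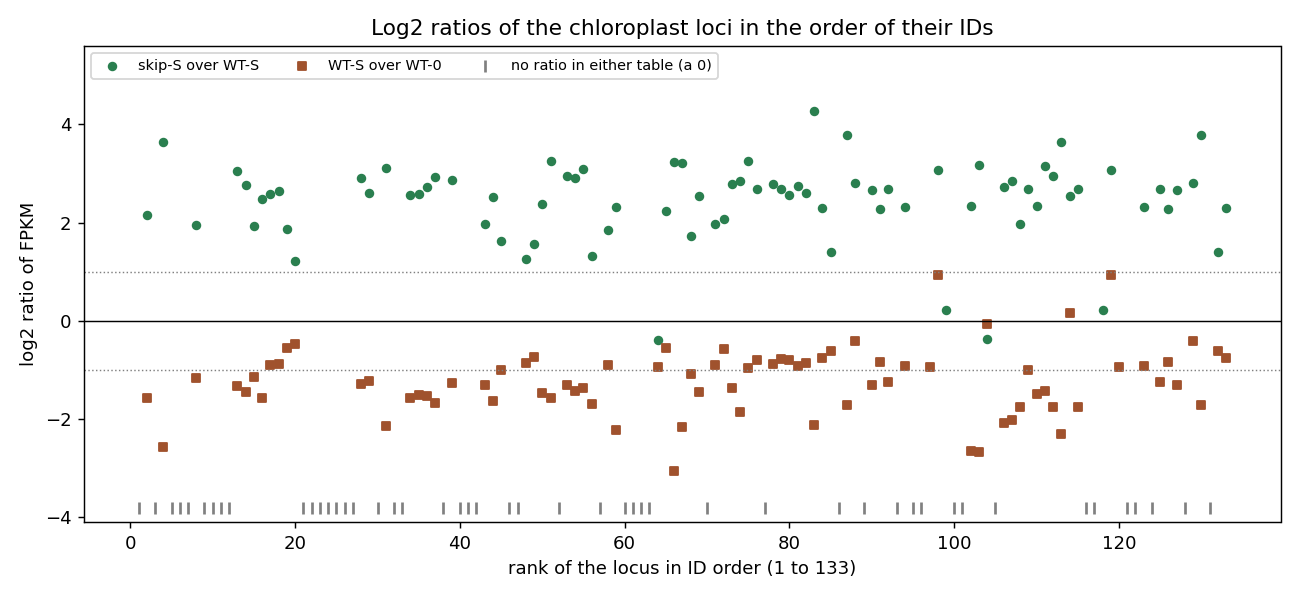
Log2 ratio of FPKM (vertical axis) of each chloroplast locus, ranked by identifier from 1 to 133 (horizontal axis), for skip-S over WT-S (green circles) and WT-S over WT-0 (brown squares). Dotted lines mark 2-fold differences and grey ticks the 48 loci without a ratio in either table. Nearly all green points lie above 1 and nearly all brown points lie below 0 along the whole range.

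Locus identifiers are numbered along a chromosome, so their order gives a rough view of position. Ratios on the same side covered the whole range of identifiers in both comparisons. With loci of the same values counted once, neighbouring loci differed by a median of 0.40 in their log2 salt ratio over 72 neighbouring pairs, against 0.58 over all 2628 pairs. For skip-S over WT-S the same medians were 0.56 and 0.60. A few stretches are described here, and they were picked after the values were seen. From ATCG00740 to ATCG00840, a stretch of 11 identifiers, 10 loci had ratios in both tables, with medians of 2.69 for skip-S over WT-S (1.40 to 4.27) and -0.83 for WT-S over WT-0 (-2.11 to -0.62). Their median for skip-S over WT-0 was 1.86. From ATCG01000 to ATCG01110, 11 of 12 loci had ratios, with medians of 2.73 for skip-S over WT-S (-0.36 to 3.65) and -1.76 for WT-S over WT-0 (-2.67 to -0.07). These ranges are wide, and the stretch includes ATCG01020, one of the exceptions given above. There the median for skip-S over WT-0 was 0.83.

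Shorter runs of neighbours varied in how close they were. ATCG00720 and ATCG00730 were at 86.1 and 80.4 FPKM in skip-S, against 12.5 and 11.1 FPKM in WT-S, while their salt ratios were further apart, at -1.36 and -1.86. ATCG00470 and ATCG00480 were at 37.0 and 40.6 FPKM in skip-S, against 15.5 and 13.7 FPKM in WT-S. These last 2 loci had some of the smaller differences in the mutant, with log2 ratios of 1.25 and 1.57. ATCG00170, ATCG00180 and ATCG00190 had salt ratios of -0.88, -0.55 and -0.48, all within the rule, and ratios of 2.64, 1.86 and 1.23 for skip-S over WT-S, further apart than the median of all pairs. The run from ATCG00520 to ATCG00540, which includes cemA, lay between 2.92 and 3.09 for skip-S over WT-S and between -1.44 and -1.30 for WT-S over WT-0.

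Several loci carried the same values as another. In 11 pairs all 4 values agreed within 1%, and in 8 of them they were equal in every digit. In the identifiers of the pairs, the first loci run from ATCG00830 to ATCG00970 and the second ones from ATCG01310 down to ATCG01160, in mirror order. The chloroplast genome of most plants carries a large repeat in inverted orientation, and reads from its copies cannot be assigned to one of them, so the members of such a pair are not separate measurements. The pair of ATCG00830 and ATCG01310 (rpl2) differed by at most 0.312%. Counted once, 70 of 73 loci were at least 2-fold higher in skip-S than in WT-S, and 45 of 73 were at least 2-fold lower in WT-S than in WT-0.

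Loci with a 0 in a group gave no ratio. ATCG00950 and ATCG01180 were both listed at 0 in skip-S, against 1581 FPKM in WT-S, and were at about 1747.5 FPKM in WT-S and 3356 FPKM in WT-0. The nearest identifiers above 0 on either side of ATCG00950 did not share this pattern: ATCG00920 was at 7888 FPKM in skip-S and 1580.2 FPKM in WT-S, and ATCG00960 was at 7076 FPKM in skip-S and 842 FPKM in WT-S. ATCG00220 was listed at 0 in skip-S, against 635 FPKM in WT-S, and was at 702 FPKM in WT-S and listed at 0 in WT-0. All 3 loci were thus listed at 0 in the mutant, where most other chloroplast loci were higher. A high level in WT-S beside a 0 in skip-S was not limited to chloroplast loci. The nuclear rRNA loci AT2G01010 and AT3G41768 were listed at 0 in skip-S, against 2341 and 4608 FPKM in WT-S, while AT2G01020 and AT3G41979 were not.

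In the opposite direction, 5 loci were listed at 0 in WT-S and above 0 in skip-S. ATCG00510 was at 359.9 FPKM, ATCG00080 at 290.2 FPKM and ATCG00760 at 93.0 FPKM in skip-S, and all 3 were listed at 0 in WT-S and in WT-0. ATCG00065 was at 52.0 FPKM in skip-S, listed at 0 in WT-S and at 50.2 FPKM in WT-0. ATCG00050 was at 0.709 FPKM in skip-S, listed at 0 in WT-S and at 1.31 FPKM in WT-0. ATCG00970 and ATCG01160 were at 9.26 FPKM in WT-S and listed at 0 in WT-0. No fold is given against a value of 0. FPKM is divided by length, and the lengths are not tied to the identifiers. A high value beside a 0, also that of ATCG00220, may thus rest on few fragments.

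As a share of all summed FPKM, the chloroplast loci made up 4.44% in skip-S, 1.31% in WT-S and 2.005% in WT-0. Most of each sum came from ATCG00920, ATCG00950, ATCG00960 and the loci with which they shared values. Those 6 loci made up 3.80% in skip-S, 1.09% in WT-S and 1.68% in WT-0. ATCG00920 was at 1746 FPKM in WT-S and 3321 FPKM in WT-0, a log2 ratio of -0.93, and its ratio for skip-S over WT-S was 2.32. The other 127 loci together made up 0.640% in skip-S, 0.222% in WT-S and 0.322% in WT-0. Their sum thus differed in the same directions as the sum of the 6 largest. Within the 6, ATCG00960 and ATCG01170 were higher in WT-S than in WT-0, and ATCG00950 and ATCG01180 were listed at 0 in skip-S.

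**Figure D3:**
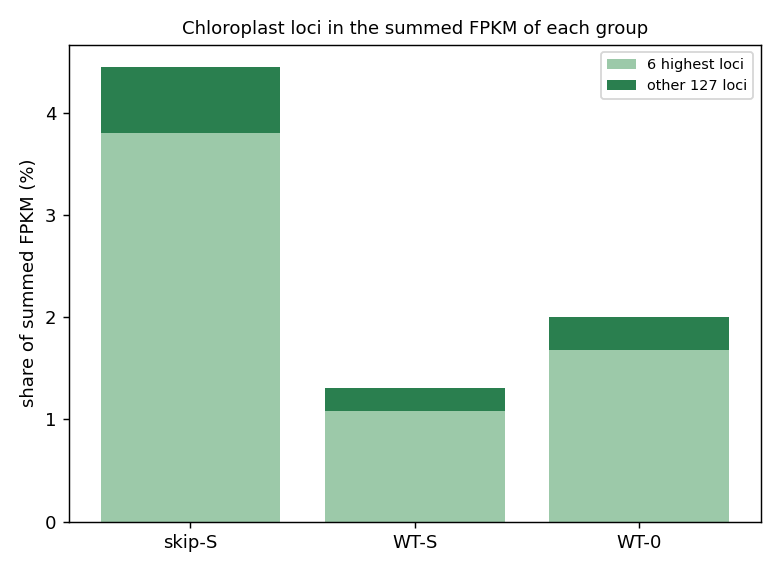
Share of the summed FPKM of all loci (vertical axis, percent) held by the chloroplast loci in skip-S, WT-S and WT-0, split into the 6 loci of highest level (light) and the other 127 (dark). The bars reach 4.44% in skip-S, 1.31% in WT-S and 2.005% in WT-0, and the 6 highest loci hold most of each.

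The mitochondrial genome, the other organelle genome of the plant, had medians on the same sides. Of 75 mitochondrial loci above 0 in both columns, 59 were at least 2-fold higher in skip-S than in WT-S and 0 at least 2-fold lower, with a median log2 ratio of 2.24. Of 71 such loci in the first table, 46 were at least 2-fold lower and 6 at least 2-fold higher in WT-S than in WT-0, with a median of -1.24. The chloroplast loci were therefore not alone in either difference, and the difference between the organelles was not tested. The 4 nuclear loci that RefSeq gives as rRNA had a lower sum in both comparisons. They summed to 9902 FPKM in skip-S and 15147 FPKM in WT-S, and to 16738 FPKM in WT-S and 33400.4 FPKM in WT-0. Of these, AT2G01010 and AT3G41768 were both listed at 0 in skip-S, and AT3G41768 also in WT-0. The other 2, AT2G01020 and AT3G41979, had log2 ratios of 0.27 each for skip-S over WT-S, so the lower sum in skip-S came from the loci listed at 0. A nuclear locus of very high level, AT2G01021, follows AT2G01020 by identifier but counts as protein-coding in RefSeq, so these sums leave it out. It was at 119043 FPKM in skip-S and 34097 FPKM in WT-S, 15.1% of all summed FPKM in skip-S and 4.63% in WT-S. Whether its reads come from rRNA was not tested, so the sums of the 4 loci do not give the direction of all nuclear rRNA. How RNA was selected for the libraries is not stated in the labels, and the part of these differences in the results on the chloroplast loci was not tested.

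Markers of green tissue did not follow the chloroplast loci in the mutant. The 10 nuclear markers, of Rubisco small subunits and light-harvesting proteins, include 2 genes of the Rubisco list given further on. They summed to 32337 FPKM in skip-S and 35225 FPKM in WT-S, with a median log2 ratio of -0.28, and 0 passed 2-fold in either direction. With salt they summed to 38929 FPKM in WT-S and 52443 FPKM in WT-0, with a median of -0.42 and all 10 below 0. The 12 root markers summed to 57.0 FPKM in skip-S and 68.3 FPKM in WT-S, and to 75.5 FPKM in WT-S and 229 FPKM in WT-0, and 8 of them were at least 2-fold lower and 1 at least 2-fold higher with salt, against 11.5% and 13.4% of all genes. In skip-S 1 root marker was at least 2-fold lower, against 9.77% of all genes. No marker of either list was at 0 in any column. The part of tissue makeup was not tested in either comparison.

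Nuclear genes for chloroplast proteins were set beside the loci of the organelle itself. The 93 genes of 9 lists were all in the tables. Of 12 nuclear subunits of photosystem I, 0 passed 2-fold in either comparison, and all 12 ratios were below 0 in both, with medians of -0.47 for skip-S over WT-S and -0.36 for WT-S over WT-0. PSAG, a peripheral subunit of photosystem I, was at 1067 FPKM in skip-S and 1803 FPKM in WT-S. Of 10 nuclear subunits of photosystem II, 0 passed 2-fold in either comparison, with medians of -0.33 and -0.43 in the same order. PSBQ-2, of the oxygen-evolving complex, was at 598 FPKM in skip-S and 880.1 FPKM in WT-S, and at 973 FPKM in WT-S and 1661 FPKM in WT-0. The 10 nuclear genes of the ATP synthase, cytochrome b6f and electron carriers had medians of -0.15 and -0.47, and 0 passed 2-fold. These 3 nuclear lists thus had medians below 0 in the mutant, where the chloroplast loci had a median of 2.60.

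Some nuclear lists had medians above 0 in skip-S, at far smaller sizes. The 4 Rubisco small subunit genes had a median of 0.38 for skip-S over WT-S and -0.59 for WT-S over WT-0. The 16 nuclear genes of plastid ribosomal proteins had medians of 0.19 and -0.36, and 0 passed 2-fold. Their plastid-encoded counterparts rpl20 and rpl2 had ratios of 3.22 and 2.30 for skip-S over WT-S. Of 11 nuclear NDH subunits, 1 was at least 2-fold higher in skip-S and 2 at least 2-fold lower with salt, with medians of 0.21 and -0.52. The shares of all genes were 6.66% and 11.5%, so 1 of 11 is near the share. NdhM was both: it was at 63.6 FPKM in skip-S and 21.5 FPKM in WT-S, and at 23.8 FPKM in WT-S and 65.3 FPKM in WT-0.

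**Figure D4:**
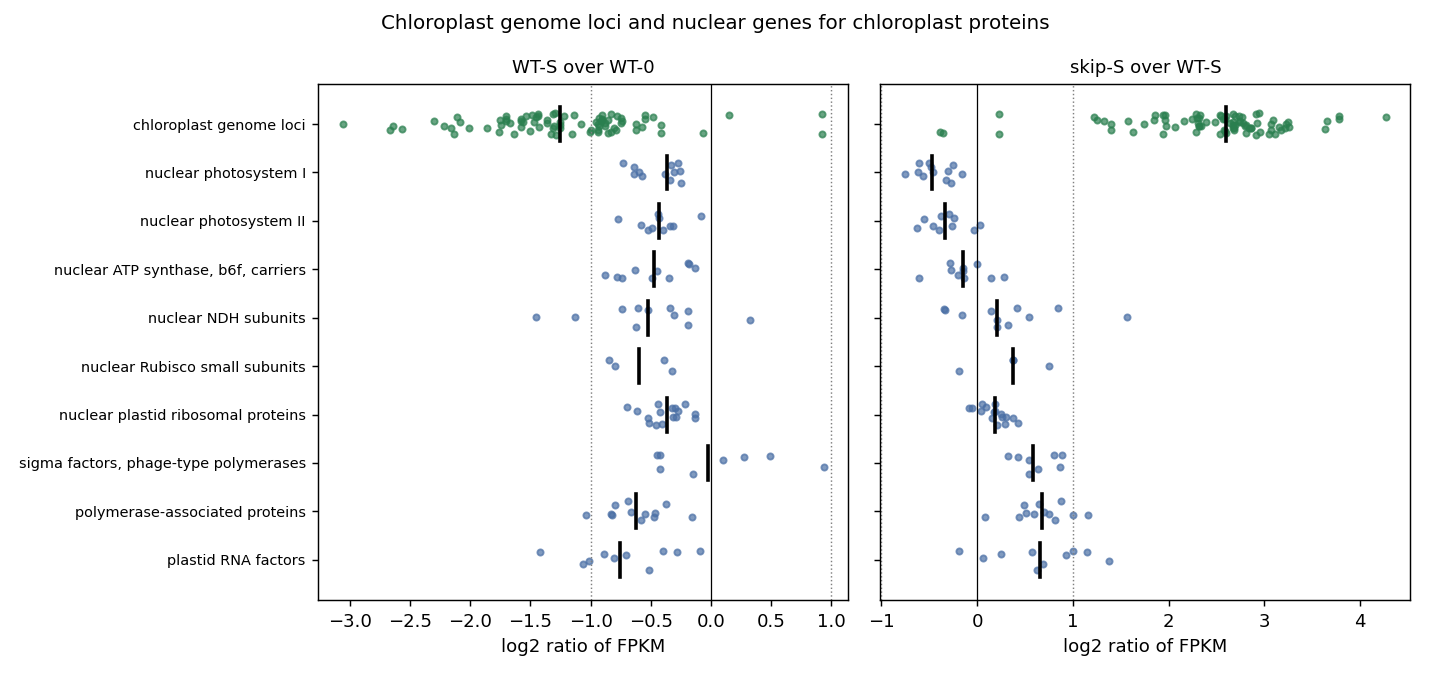
Log2 ratio of FPKM (horizontal axes) of the chloroplast loci (green, 83 in each panel) and of the genes of 9 nuclear lists (blue), for WT-S over WT-0 (left panel) and skip-S over WT-S (right panel). Each point is a locus, thick bars are medians and dotted lines mark 2-fold. In the right panel the chloroplast median is 2.60, while the medians of the nuclear lists lie between -0.47 and 0.67.

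Nuclear genes that transcribe and process chloroplast RNA had medians above 0 for skip-S over WT-S. All 8 genes of sigma factors and phage-type polymerases had ratios above 0 for skip-S over WT-S, with a median of 0.59, and 0 passed 2-fold, while 4 were above and 4 below 0 for WT-S over WT-0, with a median of -0.02. SIGE, also called SIG5, the sigma factor known for its response to stress and light, was at 53.3 FPKM in skip-S and 29.2 FPKM in WT-S, and at 32.2 FPKM in WT-S and 16.8 FPKM in WT-0. Its ratio was thus above 0 in both comparisons, unlike those of most chloroplast loci with salt. All 12 polymerase-associated proteins had ratios above 0 in skip-S and below 0 with salt, with medians of 0.67 and -0.62. Of the 12, 2 were at least 2-fold higher in skip-S and 1 at least 2-fold lower with salt, beside 6.66% and 11.5% of all genes, so the count with salt is no higher than that share. PTAC3, which met both, was at 23.0 FPKM in skip-S and 11.5 FPKM in WT-S, and at 12.7 FPKM in WT-S and 26.1 FPKM in WT-0. The other one higher in skip-S was PDE312, also called PTAC10, with a log2 ratio of 1.15.

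Among 10 factors of chloroplast RNA processing and stability, 3 were at least 2-fold higher in skip-S and 3 at least 2-fold lower with salt, with medians of 0.66 and -0.76, beside 6.66% and 11.5% of all genes. MRL1, needed for a stable transcript of the large Rubisco subunit, was at 29.7 FPKM in skip-S and 11.5 FPKM in WT-S, and at 12.7 FPKM in WT-S and 25.5 FPKM in WT-0. RNEE/G, an RNase E-type endonuclease, was at 7.92 FPKM in skip-S and 3.58 FPKM in WT-S, and at 3.96 FPKM in WT-S and 10.6 FPKM in WT-0. Against untreated wild type, MRL1 was thus slightly higher in skip-S and RNEE/G lower. No test of a difference between any of these lists and the chloroplast loci was made.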

How the data were processed

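Both deposited tables hold FPKM, with 1 value of the authors per locus and group. The unit was inferred from the values and from Cufflinks. TopHat, Cufflinks and the TAIR10 build were used per the submitters' processing notes, with no versions, and the sources used here do not say how the 2 replicates were merged. All 4 value columns were used.

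Log2 ratios of FPKM were computed within a table for loci above 0 in both columns, with no pseudocount. A 2-fold rule of size replaced a test. Ratios for skip-S over WT-0 are sums of both log2 ratios. The computation of ratios was run on WT-0 values multiplied by known factors without noise, which checks the arithmetic only. Identifiers were tied to genes through notes in the RefSeq annotation of TAIR10.1 and tblastx (BLAST 2.17.0), and 32810 of 33557 identifiers matched RefSeq by locus tag. As the builds differ in name, no coordinates or sequences are given. Depth was estimated from low values of nuclear genes with a single transcript over 800 nt, less 150 nt for the fragment. Within 0.15 of a whole step lay 64.8% of such values in skip-S, 71.2% and 71.1% in WT-S and 52.2% in WT-0. Evenly spread values would give 30% at a step set beforehand. The step was fitted to these same low values, so 30% is not the chance level for these shares. Not all values lay near a whole step, so reads were not recovered and no count test was run.

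Every chloroplast locus could be named. Of the nuclear lists, the 3 largest ratios in size per list and comparison could be named, besides SKIP, and AT2G01021 and the 4 nuclear rRNA loci were named after their values were seen. The members and the nuclear lists were chosen with earlier results of these data known. Python 3.11.15 with pandas 2.3.3 and matplotlib 3.10.9 was used.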

Additional observations from a re-analysis of the deposited data

How the results depend on the processing

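Of 50 alternatives to the counts, medians and shares, 35 stayed within 1.5 times the count or share, or within the 95% order-statistic interval of the median over loci. Among the medians and shares 0 turned a direction, while a turn was not scored for counts. For WT-S over WT-0, a pseudocount of 1 or of 0.1 over all 133 loci gave 3 loci at least 2-fold higher, since loci listed at 0 then enter, and medians of -0.70 and -0.81, since those at 0 in every group count as 0. For skip-S over WT-S they gave 3 loci at least 2-fold lower and medians of 1.70 and 2.17. A minimum of 5 FPKM in both columns left fewer loci: 18 of 36 were at least 2-fold lower with salt, and 30 of 34 at least 2-fold higher in skip-S, with a median of 2.32. For salt, a 1.5-fold rule gave 73 lower and 2 higher loci, and a 4-fold rule 11 lower ones. The share of summed FPKM was 3.39 times as high in skip-S as in WT-S, and 5.48 times with only loci above 0 in all columns, an alternative added after seeing the data, as were counting shared values once and leaving out the 6 highest loci. Alternatives by transcript length, biotype, second copy by gene name and functional group were not run, since most identifiers have no name in the sources used here. No paired analysis was possible because each group has 1 merged value. For the same reason no replicate could be left out. The number of fragments behind the value of a chloroplast locus is not known.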
